A study of Mus musculus with 4 samples.

Results

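Alpha cells, the glucagon-secreting cells of the pancreatic islet, were taken from 4 droplet single-cell RNA libraries of mouse islets. A barcode was called an alpha cell when under 10% of its unique molecular identifiers (UMIs, each standing for 1 captured RNA molecule) were mitochondrial, when it held 3000 to 50000 UMIs and 2000 to 5000 genes, and when Gcg, the glucagon precursor gene, took at least 2% of its UMIs and more than Ins1 with Ins2, than Sst, and than Ppy with Pyy. Of 22218 barcodes, 12752 passed the filter and 1603 were alpha cells, with 397 in WT and 450 in HH on SCD, and 278 and 478 on HFD. WT SCD were wild-type mice on a standard chow diet at 12 weeks of age, and HH SCD were mice homozygous for a knock-in allele of the endogenous Pax4 gene (R200H, the counterpart of human R192H) on the same diet and at the same age. WT HFD and HH HFD were the same genotypes at 16 weeks of age after 4 weeks of a high-fat diet. All mice were males on the C57BL6/N background, and each group had 1 library, made from the pooled islets of 2 to 3 animals. The groups therefore have no replicate check and were compared without a test. A group cannot be told apart from its library, nor can diet be told apart from age. Every interval is at the 95% level and covers counting error only.

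Alpha cells secrete glucagon when blood glucose falls and also in response to amino acids, and glucagon raises glucose output from the liver. Pax4 acts during islet development and favours the beta and delta fates over the alpha fate, and Irx1 and Irx2 are transcription factors found in alpha cells. The proglucagon peptide is cleaved to glucagon by the convertase Pcsk2, whereas intestinal L cells use Pcsk1 to release glucagon-like peptide 1 from the same precursor.

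Summed over alpha cells, the libraries held 5039372 UMIs in WT and 5129125 in HH on SCD, and 4535388 and 5079174 on HFD. The median alpha cell held 12323, 11020, 16001.5 and 10048 UMIs and 2958, 2709.5, 3435.5 and 2524 genes in the same order. The WT HFD library stood apart before any selection, since 38.3% of its barcodes passed the filter against 61.6% to 67.8% in the others. Any pair of libraries shared 6 to 11 barcode sequences. Levels below are CPM, the UMIs of a gene scaled to a common total over the summed class in a library, from a 3-prime assay that counts molecules without regard to gene length.

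The label held up against genes the rule did not use. Irx1, a homeobox factor (chromosome 13, 71957921 to 71963723, GRCm38), stood at 63.8 to 113 CPM in the alpha cells of the 4 libraries, against 0.17 to 0.69 in beta cells, 0.42 to 1.92 in delta cells and 1.76 to 5.96 in PP cells, the classes in which insulin, Sst or Ppy with Pyy led. Irx2 reached 84.6 to 119 CPM in alpha cells and at most 18.8 CPM in any of those classes. Ttr, which encodes the thyroid hormone carrier transthyretin, reached 22564 to 28298 CPM in alpha cells and at most 3563 CPM in the others. Gc, the vitamin D binding protein often used as an alpha marker, stood at 158 to 178 CPM in alpha cells and 29.2 to 148 CPM in beta cells, but at 132 to 214 CPM in delta and 148 to 210 CPM in PP cells, so it did not separate alpha cells from these.

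The 250 bases before the RefSeq start of Gcg (build GRCm38.p6, chr2:62483654-62483903, minus strand, written 5′ to 3′ on the gene's strand) are shown because this is the gene that defines the cells. The capitals mark the letters TATAAA, 24 bases before the start. These letters, searched on the gene's strand, occur in 7.59% of the 32851 RefSeq promoter windows of the same length.
Gcg: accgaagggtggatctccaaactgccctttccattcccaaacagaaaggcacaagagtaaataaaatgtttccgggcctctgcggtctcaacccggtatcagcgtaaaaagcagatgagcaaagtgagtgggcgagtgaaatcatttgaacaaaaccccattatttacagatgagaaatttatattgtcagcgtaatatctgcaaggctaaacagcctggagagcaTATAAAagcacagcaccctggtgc

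**Figure D1:**
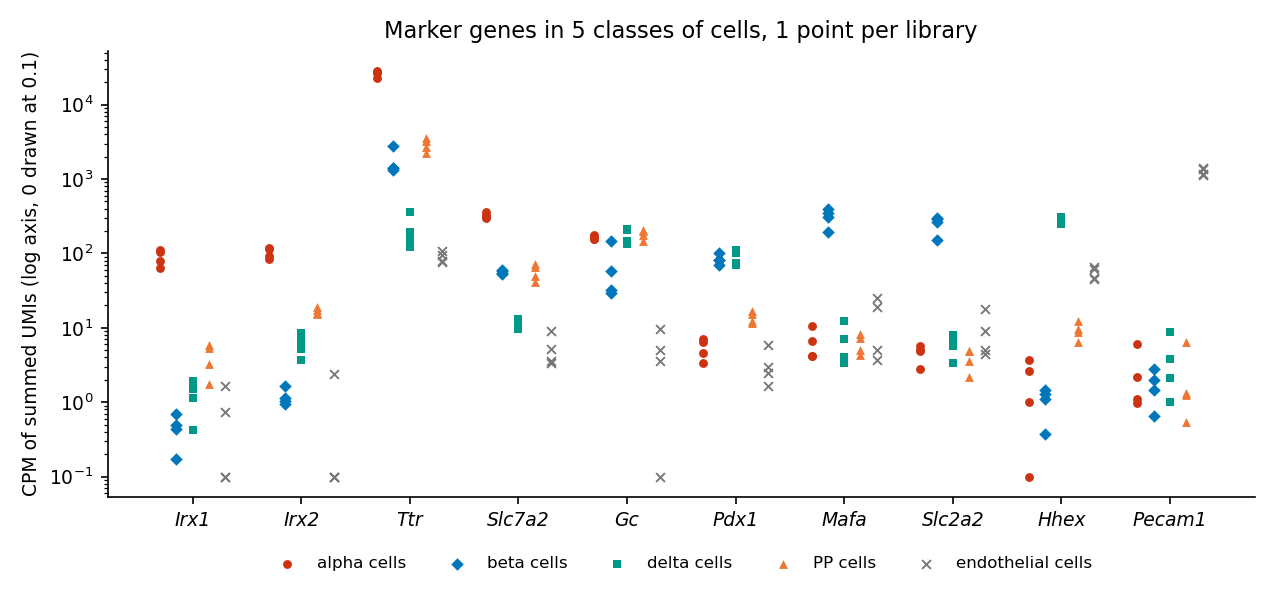
Summed level of 10 marker genes in CPM (log axis, 0 drawn at 0.1) in alpha, beta, delta, PP and endothelial cells, with 1 point per library. Irx1, Irx2 and Ttr stood higher in alpha cells than in every other endocrine class in all 4 libraries, whereas Gc overlapped between alpha, delta and PP cells.

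Ranked by the smallest log2 ratio of alpha over beta, delta and PP cells in any library, with all 6 islet hormone genes left out, the genes most particular to alpha cells included Irx1 (4.13), Pcp4l1 (3.89), Ttr (2.95), Higd1a (2.79), Wnk3 (2.58), Irx2 (2.45), Upk3a (2.39) and Slc7a2 (2.25). Slc7a2 carries cationic amino acids such as arginine, and it stood at 304 to 361 CPM in alpha cells against 52.8 to 59.2 CPM in beta cells. Lpl, the lipase that frees fatty acids from lipoproteins, stood at 336 to 446 CPM in alpha cells against 34.3 to 90.1 CPM in beta cells. Pdk4, a kinase that restrains entry of pyruvate into the citric acid cycle, stood at 53.8 to 132 CPM in alpha cells and at or under 0.85 CPM in beta cells. At the other end were Hadh, an enzyme of fatty acid oxidation, whose largest log2 ratio in any library was -2.38, Pcsk1 (-2.14), Frzb (-1.29) and Pdx1 (-1.11). Pdx1, the beta and delta cell homeobox factor, stood at 3.31 to 7.06 CPM in alpha cells and at 69.6 to 102 CPM in beta cells. These classes were cut by hormone UMIs from the same cells, so the ratios are a description.

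Of the convertases, Pcsk2 stood at 2952 to 3929 CPM in alpha cells and at 1478 to 1585 CPM in beta cells, whereas Pcsk1 stood at 4.48 to 4.96 CPM in alpha cells and at 213 to 230 CPM in beta cells. Of 20 receptor genes, only Gria2, a subunit of AMPA-type glutamate receptors, reached a mean of 50 CPM in alpha cells, at 202 to 219 CPM. Glp1r, the receptor of glucagon-like peptide 1, stood at 3.51 to 5.95 CPM in alpha cells against 194 to 274 CPM in beta cells. Gipr, the receptor of the other incretin, stood at 8.93 to 12.4 CPM in alpha cells and at 20.02 to 33.5 CPM in beta cells. Gcgr, the glucagon receptor, was found at 0 to 0.40 CPM in alpha cells and at 6.35 to 7.91 CPM in beta cells. After each cell was thinned to 3000 UMIs, Glp1r had a UMI in 1.0% to 1.5% of alpha cells (4.0% to 7.56% before thinning) and in 43.8% to 51.8% of beta cells.

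Pax4, which carries the knock-in, had 0 UMIs in the alpha cells of all 4 libraries and also in all other barcodes. In alpha cells this allows up to 0.595, 0.585, 0.661 and 0.591 CPM in WT SCD, HH SCD, WT HFD and HH HFD. The variant changes an amino acid, so the level of this gene could not check the genotype labels at any depth. By quantitative RT-PCR the paper reports low Pax4 mRNA in adult islets, similar between the genotypes.

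Summed markers of other cells stood low in alpha cells, apart from lymphocyte markers in HH HFD, though macrophage UMIs were spread widely. Endothelial markers summed to 18.1, 22.0, 11 and 73.6 CPM in alpha cells of WT SCD, HH SCD, WT HFD and HH HFD, against 15572 to 17384 CPM in endothelial cells. Macrophage markers summed to 73.0 to 86.0 CPM, with Adgre1 at 0 in 3 libraries, and ductal markers to 21.6 to 77.4 CPM, with Cftr at 0 in all 4. A macrophage marker UMI was found in 47.4% to 60.1% of alpha cells and a ductal one in 12.3% to 24.9%. Of the 5 macrophage markers only C1qa averaged at least 50 CPM. The macrophage sum was 42.2 to 66.3 CPM in beta, 94.5 to 118 CPM in delta and 7.14 to 95.6 CPM in endothelial cells. Stromal, acinar and Schwann markers each stayed under 26 CPM. Lymphocyte markers summed to 1.98, 2.73 and 8.16 CPM in the first 3 libraries and to 1606 CPM in HH HFD, where 8021 of their 8155 UMIs lay in 1 cell.

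On SCD, Gcg took a median of 30.3% of an alpha cell's UMIs in WT and 29.5% in HH, and on HFD 33.5% and 32.7%. The interquartile range was 8.01 and 8.38 percentage points in the SCD libraries and 13.7 and 12.2 in the HFD libraries, so single cells were more spread in Gcg after HFD in both genotypes. The lowest cells stood at 4.07%, 7.12%, 2.53% and 2.06% and the highest at 50.2%, 47.0%, 54.6% and 51.8%. The cells were chosen by their Gcg, insulin, Sst and Ppy with Pyy UMIs, so these values are a description. The 2% threshold removed almost nothing, since 3 of 1603 alpha cells lay under 3% and a single barcode in which Gcg led, in WT SCD at 1.93%, lay outside. The condition that Gcg must lead mattered more, since 40, 58, 17 and 91 barcodes with at least 2% Gcg were led by another hormone.

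Alpha cells also carried insulin UMIs, at a median of 0.995%, 0.711%, 0.804% and 0.923% of a cell's UMIs in WT SCD, HH SCD, WT HFD and HH HFD. Insulin reached 2% in 51, 61, 7 and 28 alpha cells. Summed over alpha cells, Ins2 stood at 10348, 10610, 6494 and 7848 CPM, and in endothelial cells, which make no insulin, at 15088, 10502, 11717 and 9709 CPM. Insulin UMIs in alpha cells thus lay near or under that background and are not read as expression.

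Alpha cells made up 13.3% (12.1 to 14.6) of endocrine cells in WT SCD and 14.8% (13.6 to 16.2) in HH SCD. They made up 16.2% (14.5 to 18.1) in WT HFD and 11.8% in HH HFD. HH exceeded WT by 1.55 percentage points in SCD, with an interval that includes 0 (-0.23 to 3.33), and lay below WT in HFD (difference -4.37, -6.45 to -2.37). HFD exceeded SCD by 2.92 points in WT (0.79 to 5.11) and lay below it in HH (-3.0, -4.64 to -1.37). The HFD difference rested on the filter. With no bounds on genes per cell the shares were 13.3% in WT HFD and 12.5% in HH HFD, a difference of -0.73 (-2.49 to 0.99), and with a looser filter they were 10.9% and 12.0%, a difference of 1.09 (-0.37 to 2.53). No share of alpha cells was therefore read as higher or lower under HFD.

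Transcripts of the pancreatic polypeptide family stood higher in HH than in WT alpha cells in both diets. Ppy, encoding pancreatic polypeptide, and Pyy, encoding peptide YY, lie side by side on chromosome 11 (102099930 to 102101319 and 102106676 to 102107832, minus strand, GRCm38) and share a peptide fold. On SCD, they together took a median of 0.265% of an alpha cell's UMIs in WT and 0.596% in HH, and on HFD 0.743% and 1.48%. The rule capped them, since an alpha cell had to hold more Gcg than Ppy with Pyy, so what follows on them is a description, and its intervals count cells of 1 library per group and not the spread between libraries.

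Ppy with Pyy reached 2% of UMIs in 81 of 397 alpha cells in WT SCD (20.4%, 16.5 to 24.7) and 121 of 450 in HH SCD (26.9%, 22.8 to 31.2). On HFD it did so in 82 of 278 cells in WT (29.5%, 24.2 to 35.2) and in 205 of 478 in HH (42.9%, 38.4 to 47.5). HH exceeded WT by 6.49 percentage points in SCD (0.58 to 12.3) and by 13.4 in HFD (6.11 to 20.4). HFD exceeded SCD by 9.09 points in WT (2.27 to 16.0) and by 16.0 in HH (9.75 to 22.1). At 10% of UMIs the counts were 10, 20, 11 and 31 cells. Predicted doublets were 2, 1, 2 and 7 of the cells past 2%. These cells held more UMIs than the others, with medians of 14721 against 11945.5 in WT and 12360 against 10653 in HH on SCD, and of 16975.5 against 14610.5 and 10672 against 9624 on HFD.

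**Figure D2:**
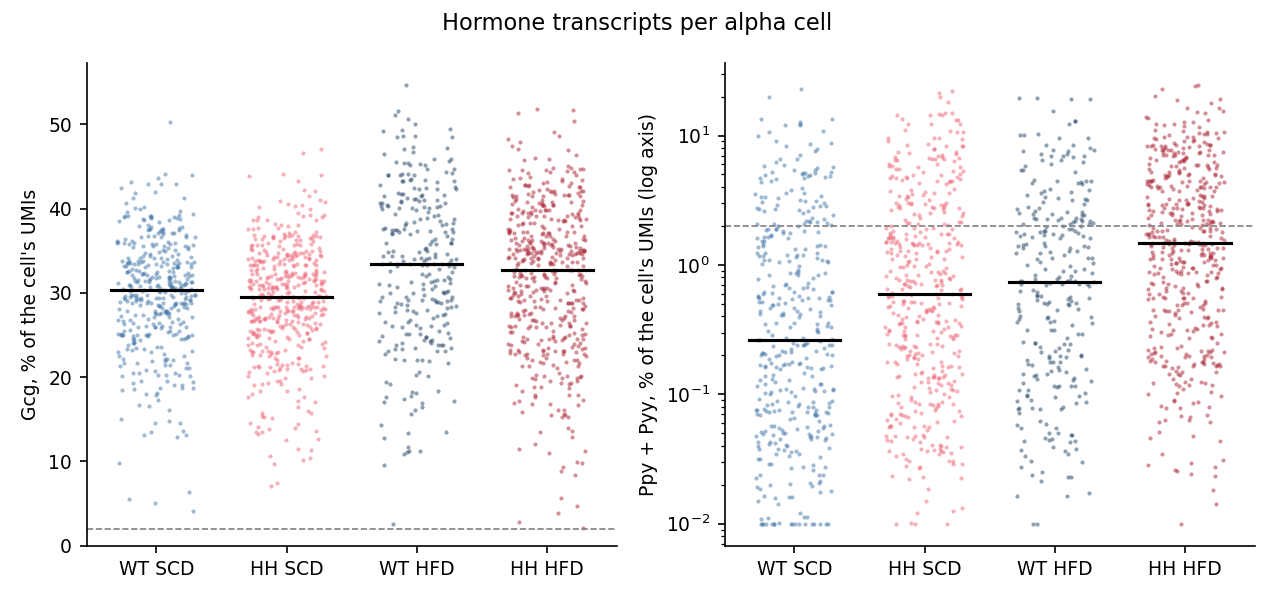
Share of each alpha cell's UMIs taken by Gcg (left, linear axis) and by Ppy with Pyy (right, log axis, values under 0.01% drawn at 0.01%) in the 4 libraries, with the median as a black line and 2% as a dashed line. Median Gcg lay between 29.5% and 33.5% in every library, while the median of Ppy with Pyy went from 0.265% in WT SCD to 1.48% in HH HFD.

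Alpha cells and PP cells differed in which of these peptides led. Alpha cells held 2.06, 2.38, 1.75 and 2.19 Pyy UMIs per Ppy UMI in WT SCD, HH SCD, WT HFD and HH HFD, and PP cells 0.327, 0.334, 0.331 and 0.270. Among alpha cells with at least 2%, Pyy exceeded Ppy in 77.8%, 84.3%, 72.0% and 80.0%, against 9.09%, 11.3%, 9.41% and 5.24% of PP cells. The Ppy and Pyy UMIs of alpha cells thus did not have the ratio of PP cells in any library. Delta cells also held more Pyy than Ppy, with 40485 CPM of Pyy and 20421 CPM of Ppy in WT SCD.

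Summed over alpha cells, Pyy stood at 11277 CPM in WT SCD and 16816 in HH SCD, a log2 ratio of HH over WT of 0.58 (0.56 to 0.59). It stood at 14580 CPM in WT HFD and 23127 in HH HFD, a log2 ratio of 0.67 (0.65 to 0.68). Ppy stood at 5471, 7062, 8355 and 10561 CPM in WT SCD, HH SCD, WT HFD and HH HFD, with log2 ratios of HH over WT of 0.37 in SCD and 0.34 in HFD. Without the 1% of alpha cells that held most of its UMIs, the Pyy log2 ratio was 0.66 in SCD and 0.72 in HFD. In alpha cells with every other hormone under 2% of UMIs it was 0.49 and 0.28, but that limit also caps Pyy, so these values are partly set by the selection. It kept 278 of 397, 284 of 450, 190 of 278 and 254 of 478 alpha cells. The log2 ratio of Pyy between genotypes in PP cells was -0.04 in SCD and -0.21 in HFD, and in delta cells 0.06 and 0.13. In beta cells Pyy stood at 338, 611, 321 and 879 CPM and in endothelial cells at 528, 93.9, 127 and 1026 CPM. Beta cells thus also held more of it in HH, by a larger factor than alpha cells but at a far lower level. With the profile of the whole library subtracted from alpha cells, the Pyy log2 ratio was 0.58 in SCD and 0.67 in HFD.

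The comparison of HH with WT asks what the Pax4 variant changes in alpha cells. Among the 2000 genes that averaged at least 50 CPM, 12 stood at least 0.5 log2 higher in HH SCD than in WT SCD (0.6%) and 7 stood that much lower (0.35%). Together these were 0.95% of the genes. In HFD, 8 genes were higher in HH (0.4%) and 8 lower (0.4%), or 0.8% in all. The median log2 ratio was -0.00 in SCD and 0.02 in HFD. The only gene past 0.5 in the same direction in both diets was Pyy, a hormone gene of the rule that chose the cells. Sst, another gene of that rule, went past 0.5 in opposite directions. Ighm did so too, but on 4 UMIs in WT SCD and 2 in HH SCD and, in HFD, on UMIs that lay almost all in 1 cell, through which it also reached 50 CPM. It is 1 of the 7 lower genes in SCD, and no direction is read from it. Across the 2000 genes the ratios of both diets had a Pearson r of -0.08. The diets share no library in this comparison, and genes are not independent replicates.

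Most of the alpha cell genes read here lay within 0.5 of each other between the genotypes. Irx1 stood at 80.0 CPM in WT and 63.8 in HH on SCD, and 113 and 105 on HFD, with log2 ratios of HH over WT of -0.33 and -0.11. Irx2 stood at 93.7, 84.6, 114 and 119 CPM in the same order. Of 4 measured alpha transcription factors none passed 0.5 in either diet. Of 11 measured alpha-enriched genes, only Dpp10, a potassium channel auxiliary subunit, passed it, in HFD (68.8 CPM in WT and 47.8 in HH, log2 ratio -0.52). Outside these lists, Pcp4l1, which ranked among the genes most particular to alpha cells, stood at 37.7 CPM in WT HFD and 25.004 in HH HFD (-0.59, -0.94 to -0.25), against 103 and 110 CPM in SCD (0.10), and Upk3a, of the same ranking, was lower in HH SCD. None of 9 genes for glucagon processing and granules, 7 ion channels, 9 exocytosis genes, 9 genes for amino acid transport and use, 4 for glucose use, 17 of the unfolded protein response, 79 ribosomal protein genes or 73 nuclear respiratory chain genes passed 0.5 in either diet. In HFD the median log2 ratio of HH over WT was 0.11 for ribosomal protein genes and 0.12 for nuclear respiratory chain genes, beside 0.02 over all genes. That of ribosomal protein genes was 0.24 in beta, 0.00 in delta, 0.09 in PP and 0.10 in endothelial cells.

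In SCD, immediate early genes, which respond within minutes to signals at the cell surface, were among the genes that stood higher in HH. Of 17 measured, 4 were past 0.5 and 1 was below -0.5, beside 0.6% and 0.35% of all genes, with a median of 0.26. The median of these genes in SCD was 0.37 in delta, 0.32 in PP, -0.04 in beta and -0.09 in endothelial cells. The higher values in HH were thus not particular to alpha cells. Klf4, a zinc finger transcription factor (chromosome 4, 55527143 to 55532466, GRCm38), stood at 88.5 CPM in WT SCD and 140 in HH SCD (log2 ratio 0.67, 0.49 to 0.84). Fosb stood at 776 and 1116 CPM (0.52), Atf3 at 698 and 988 CPM (0.50) and the nuclear receptor Nr4a1 at 66.9 and 95.3 CPM (0.51). Its relative Nr4a2, which was not on the list, stood at 60.5 and 97.7 CPM (0.69, 0.48 to 0.90). Socs3, an inhibitor of cytokine signalling, went the other way, from 34.5 CPM in WT SCD to 18.1 in HH SCD (-0.93). In HFD none of the 17 passed 0.5 and their median was 0.03. There, Nr4a2 stood at 55.8 CPM in WT and 43.9 in HH (-0.35, -0.61 to -0.08).

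Txnip, a thioredoxin inhibitor whose transcription follows glucose, stood at 117 CPM in WT SCD and 169 in HH SCD (0.53). Iapp, the amyloid peptide of beta and delta cell granules, stood at 1606 and 2399 CPM (0.58, 0.54 to 0.62). The Iapp value moved with the cells that were counted. It was 0.38 without the 1% of alpha cells with most Iapp, 0.17 in alpha cells with every other hormone under 2%, and 1.13 with the library profile subtracted. In HFD Iapp stood at 1623 CPM in WT and 2025 in HH (0.32), or 0.29 without its top 1% of cells. Ins1 and Ins2 had log2 ratios of 0.03 and 0.04 in SCD. The tubulin genes Tubb5 and Tubb4b, with Dapl1 and H1fx, completed the 12 genes.

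The metallothioneins Mt1 and Mt2, small proteins that bind zinc and copper, stood lower in HH SCD than in WT SCD. Mt1 stood at 1393 CPM in WT SCD and 932 in HH SCD (-0.58, -0.63 to -0.53), and Mt2 at 294 and 184 CPM (-0.68, -0.79 to -0.56). In HFD both were low and the order turned, with Mt1 at 184 CPM in WT and 243 in HH (0.40, 0.28 to 0.53) and Mt2 at 34.0 and 40.4 CPM (0.25, -0.06 to 0.56). The median log2 ratio of this pair in SCD was -0.63 in alpha, -1.06 in beta, -0.89 in delta, -0.73 in PP and -2.10 in endothelial cells, and was thus not particular to alpha cells. In HFD it was 0.33 in alpha, -1.28 in beta, 1.07 in delta, 0.32 in PP and 0.31 in endothelial cells. Upk3a, a uroplakin gene that was among the genes most particular to alpha cells, stood at 105 CPM in WT and 60.2 in HH on SCD, and 58.0 and 51.2 on HFD. WT SCD was thus the high library for Upk3a, with a log2 ratio of HH over WT of -0.80 (-1.01 to -0.60) in SCD. Basp1, a protein of the inner cell membrane, stood at 195 and 125 CPM in SCD (-0.64) and at 174 and 225 CPM in HFD (0.37).

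Most Sst UMIs of alpha cells lay in a few cells in every library but HH SCD. Sst stood at 591, 76.6, 592 and 1588 CPM in WT SCD, HH SCD, WT HFD and HH HFD, with log2 ratios of HH over WT of -2.95 and 1.42. The 1% of alpha cells with most Sst held 86%, 7%, 85% and 77% of its UMIs. Without them Sst stood at 85.9, 72.0, 89.2 and 375 CPM, and the log2 ratios were -0.26 and 2.07. The ratio in SCD was thus small without those cells, and that in HFD was larger. In HH SCD the 393 Sst UMIs were spread over 248 of 450 alpha cells, with at most 6 in a cell. In endothelial cells Sst stood at 1888, 70.4, 95.3 and 2152 CPM. After thinning to 3000 UMIs, Sst had a UMI in 25.7%, 20.7%, 24.5% and 31.2% of alpha cells and in 25.6%, 22.0%, 25.5% and 29.1% of endothelial cells. The alpha shares thus lay near that background, and the Sst ratios are not read as differences in expression. Igkc and Ighm, immunoglobulin genes, headed the HFD comparison on a single cell, since 8018 of 8127 Igkc UMIs and 1348 of 1378 Ighm UMIs of HH HFD alpha cells lay in 1 cell.

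Beyond these, Neat1, a nuclear long noncoding RNA, stood at 48.7 CPM in WT HFD and 106 in HH HFD (1.13, 0.90 to 1.36), against 49.2 and 50.9 CPM in SCD. Errfi1, an inhibitor of the EGF receptor, stood at 65.0 CPM in WT HFD and 101 in HH HFD (0.64), and at 140 and 115 CPM in SCD. Gm42418, which holds ribosomal RNA sequence, stood at 4797 CPM in WT HFD and 2975 in HH HFD (-0.69), and at 2527 and 2295 CPM in SCD. Its log2 ratio in HFD was -0.65 in beta, -0.56 in delta, -0.55 in PP and -0.68 in endothelial cells, so the whole WT HFD library was high for it. AY036118, which overlaps Gm42418 on the other strand of chromosome 17, and Lars2, the mitochondrial leucyl-tRNA synthetase, had log2 ratios of -0.80 and -0.87 in alpha cells. Hspa1a and Hspa1b, near-identical heat shock genes whose reads may be split between them, had log2 ratios of -0.54 and -0.70 in HFD.

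**Figure D3:**
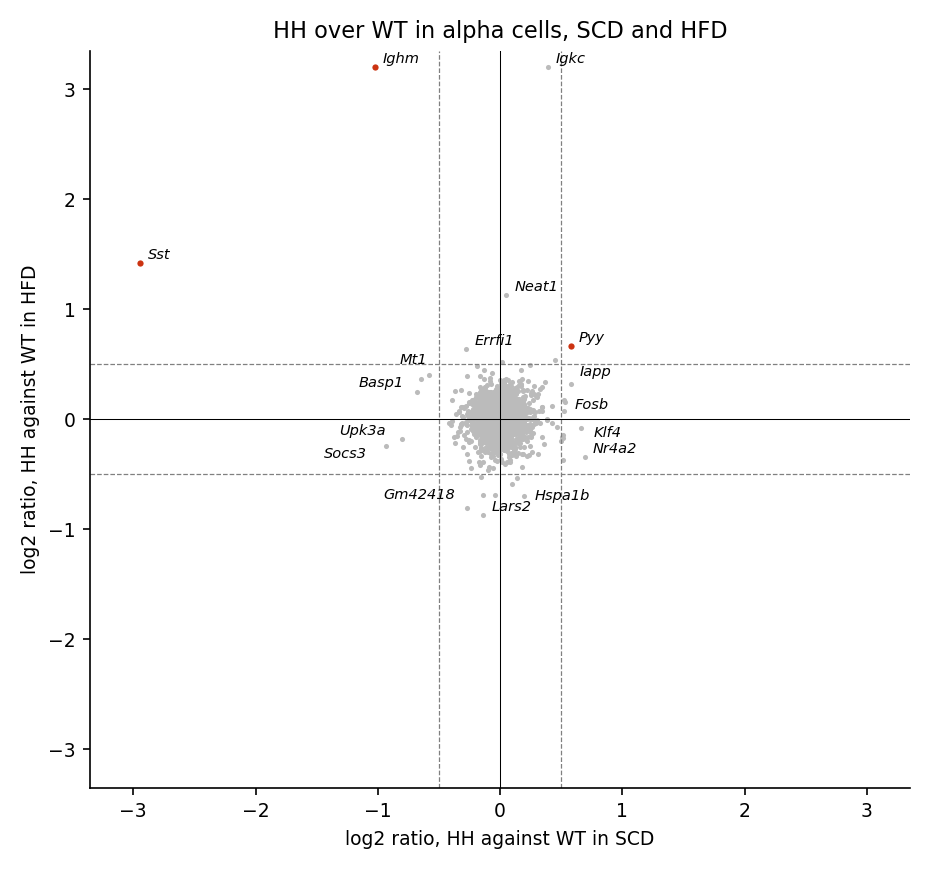
Log2 ratio of HH over WT in alpha cells for the 2000 genes of 50 CPM or more, with SCD on the horizontal and HFD on the vertical axis. Red points are the genes past 0.5 in both diets, and Igkc and Ighm, whose UMIs in HFD lay almost all in 1 cell, are drawn at the edge. Pyy, at 0.58 and 0.67, is the one gene past 0.5 in the same direction in both diets, and the rule that chose the cells used it.

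The comparison of HFD with SCD gave many more genes, in both genotypes. In WT, 46 of 2000 genes stood at least 0.5 log2 higher in HFD (2.3%) and 187 stood that much lower (9.35%), or 11.7% in all. In HH, 59 were higher (2.95%) and 158 lower (7.9%), or 10.8% in all. The median log2 ratio was -0.08 in WT and -0.07 in HH. The split moved with the scaling. It was 72 higher and 124 lower in WT and 85 higher and 136 lower in HH with median-of-ratios size factors. It was 70 and 118, and 76 and 134, when hormone and mitochondrial genes were left out of the totals. In all, 135 genes were past 0.5 in the same direction in both genotypes, 32 higher (1.6% of those tested) and 103 lower (5.15%). The 32 include Igkc and Ighm, which rest on few UMIs or on 1 cell. They also include Ppy, and the 103 include Ins1. Both are hormone genes of the rule that chose the cells, so no support is drawn from them. The 135 were 57.9% of the genes called in WT and 62.2% of those called in HH, and none went in opposite directions. Across the 2000 genes the ratios of the genotypes, which share no library, had a Pearson r of 0.76.

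**Figure D4:**
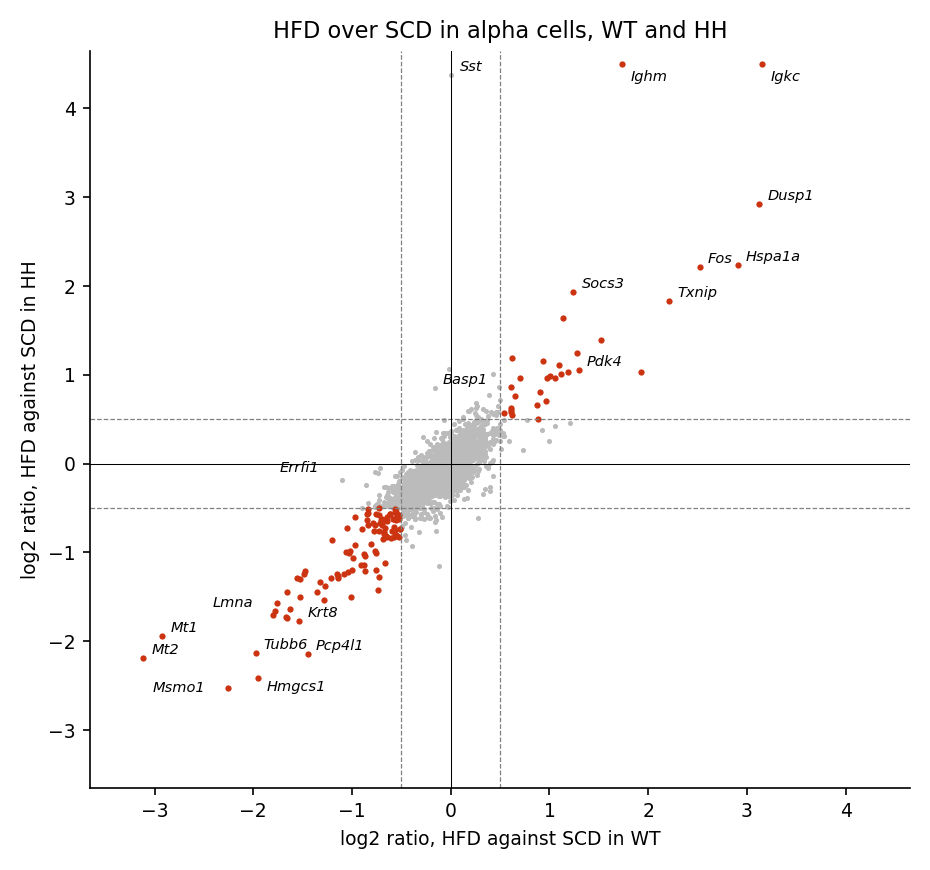
Log2 ratio of HFD over SCD in alpha cells for the 2000 genes, with WT on the horizontal and HH on the vertical axis and the 135 genes past 0.5 in both in red. Igkc and Ighm are drawn at the edge. Dusp1 (3.12 and 2.93), Fos (2.52 and 2.22) and Txnip (2.21 and 1.83) lie at the upper right, and Mt1 (-2.92 and -1.94), Mt2 (-3.12 and -2.19) and Msmo1 (-2.26 and -2.53) at the lower left.

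Immediate early genes stood higher in HFD. Of 17 measured, 11 were past 0.5 and 1 below -0.5 in WT, with a median of 0.93, and 10 and 2 in HH, with a median of 0.96. Over all genes 2.3% in WT and 2.95% in HH were past 0.5. Dusp1, a phosphatase that switches off MAP kinases, stood at 51.8 CPM in WT and 62.6 in HH on SCD, and 451 and 476 on HFD. Its log2 ratio of HFD over SCD was 3.12 (2.94 to 3.31) in WT and 2.93 (2.76 to 3.1) in HH. Fos, a subunit of the AP-1 transcription factor (chromosome 12, 85473890 to 85477273, GRCm38), stood at 404, 544, 2322 and 2526 CPM in the same order, so both HFD libraries lay far above both SCD libraries. Its log2 ratio was 2.52 (2.45 to 2.59) in WT and 2.22 (2.16 to 2.27) in HH. After thinning to 3000 UMIs, Fos had a UMI in 58.7%, 73.8%, 95% and 98.1% of alpha cells, against 80.2%, 69.2%, 89.9% and 94.0% of endothelial cells. Before thinning the alpha shares were 89.7%, 93.3%, 98.6% and 99.2%.

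The partners and regulators of Fos were less alike. Jun had log2 ratios of HFD over SCD of 1.12 in WT and 1.01 in HH, Junb 1.10 and 1.11, and Egr1 1.06 and 0.96. Fosb lay below 0 (-0.32 and -0.77), and the nuclear receptor Nr4a1 was lower in both genotypes (-0.74 and -1.42). Nr4a2 differed little in WT (-0.12) and was lower in HH (-1.15). Socs3 stood at 81.6 CPM in WT HFD and 69.1 in HH HFD (1.24 and 1.93). Klf4 was past 0.5 in WT (1.21) and not in HH (0.46), and whether these differ between genotypes was not tested.

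The 250 bases before the RefSeq start of Dusp1 (GRCm38.p6, chr17:26508473-26508722, minus strand) are shown because Dusp1 had the highest ratio of this list. The capitals mark a cyclic AMP response element, spelled TGACGTCA, 143 bases before the start.
Dusp1: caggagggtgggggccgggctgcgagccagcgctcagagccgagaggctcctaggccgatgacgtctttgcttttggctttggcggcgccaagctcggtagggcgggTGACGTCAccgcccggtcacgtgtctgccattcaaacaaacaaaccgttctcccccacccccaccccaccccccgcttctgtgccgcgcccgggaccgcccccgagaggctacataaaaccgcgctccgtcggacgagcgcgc

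This motif, searched on both strands, occurred in 1.55% of all 32851 windows and in 4.59% of those of the 1591 matched genes of 50 CPM or more. Of the 32 genes higher in HFD in both genotypes, 25 matched a window and 2 of them, Btg2 and Dusp1, held it (8%). Of the lower genes, 6 of 80 held it (7.5%), so the motif was about as frequent in both groups. A match is a description of the letters.

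Outside that list, single genes also stood higher. Txnip (chromosome 3, 96557957 to 96561883, GRCm38) stood at 117 CPM in WT and 169 in HH on SCD, and 543 and 604 on HFD. Its log2 ratio of HFD over SCD was 2.21 (2.08 to 2.35) in WT and 1.83 (1.73 to 1.95) in HH. Pdk4, 1 of 4 measured genes of fatty acid use, stood at 53.8, 55.0, 132 and 114 CPM (1.30 in WT and 1.05 in HH), and the other 3 did not pass 0.5. Hspa1a stood at 40.7, 44.6, 305 and 210 CPM (2.91 and 2.23) and Hspa1b at 29.0, 33.1, 110 and 67.9 CPM (1.93 and 1.04), with the uncertainty of near-identical copies. Of 10 heat shock genes, 3 passed 0.5 in WT and 2 in HH, beside 2.3% and 2.95% of all genes. Cited2, a coactivator that limits hypoxia signalling, Bambi, a decoy receptor of the TGF-beta family, and Rgs2, which shortens G protein signals, stood at 1.52, 1.28 and 1.13 in WT and at 1.39, 1.25 and 1.64 in HH.

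The metallothioneins were the lowest named group. Mt1 stood at 1393 CPM in WT and 932 in HH on SCD, and 184 and 243 on HFD, a log2 ratio of HFD over SCD of -2.92 in WT and -1.94 in HH. Mt2 stood at 294, 184, 34.0 and 40.4 CPM, with log2 ratios of -3.12 (-3.36 to -2.88) and -2.19 (-2.42 to -1.97). For both genes the SCD libraries lay above the HFD libraries in each genotype. The 250 bases before their RefSeq starts (GRCm38.p6, chromosome 8, plus strand, chr8:94178839-94179088 for Mt1 and chr8:94172368-94172617 for Mt2) are shown because both lie side by side. The capitals mark the core of the metal response element, TGCACNC or TGCGCNC on either strand.
Mt1: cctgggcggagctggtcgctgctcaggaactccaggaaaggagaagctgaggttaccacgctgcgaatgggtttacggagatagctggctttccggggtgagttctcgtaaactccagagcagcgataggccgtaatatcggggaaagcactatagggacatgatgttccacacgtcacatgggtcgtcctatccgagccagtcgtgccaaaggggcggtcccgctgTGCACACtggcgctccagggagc
Mt2: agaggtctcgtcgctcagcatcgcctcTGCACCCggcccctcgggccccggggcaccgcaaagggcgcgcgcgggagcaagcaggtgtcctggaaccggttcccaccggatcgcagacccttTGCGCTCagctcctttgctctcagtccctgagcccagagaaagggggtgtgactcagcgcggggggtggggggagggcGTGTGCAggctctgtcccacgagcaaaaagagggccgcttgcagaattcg

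Mt1 held 1 match and Mt2 held 3. The motif is short, and it occurred in 21.4% of all windows and in 33.8% of those of genes of 50 CPM or more.

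Genes of cholesterol synthesis, a list chosen after the values were seen, stood lower in HFD. Of 20 genes only 4 reached 50 CPM, and 3 of them were past -0.5 in WT and 4 in HH (9.35% and 7.9% of all genes), with medians of -1.48 and -1.70. Msmo1, an enzyme that removes methyl groups from sterols, stood at 100 CPM in WT and 95.3 in HH on SCD, and 20.9 and 16.5 on HFD. Its log2 ratio was -2.26 (-2.59 to -1.94) in WT and -2.53 (-2.88 to -2.19) in HH. Hmgcs1, the enzyme before the committed step, had log2 ratios of -1.95 and -2.42. Both Msmo1 and Hmgcs1 lay under 50 CPM in the HFD libraries and met that minimum through SCD. Fdps, further along the pathway, had -0.18 and -0.54.

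The list of actin and filament genes was also chosen after the values were seen, so its count is a description. Of 19 measured, 14 were past -0.5 in each genotype, beside 9.35% of all genes in WT and 7.9% in HH, and none was past 0.5, with medians of -0.90 in WT and -0.91 in HH. Tubb6, Tpm4, Myh9 and Wdr1 lay under 50 CPM in both HFD libraries and met that minimum through SCD, so the minimum partly sets the count. Of list genes under the minimum, Vcl, Srf and Flna were past -0.5 in both genotypes, and Tpm3 and Actn1 in neither. Actg1, cytoplasmic gamma actin (chromosome 11), stood at 2856 CPM in WT and 2788 in HH on SCD, and 1139 and 1107 on HFD, so the genotypes lay close within each diet (log2 ratio of HFD over SCD -1.33 in both). Krt8, an epithelial keratin, had log2 ratios of -1.53 and -1.77 and its partner Krt18 -1.0 and -1.20. Lmna, the nuclear lamin A gene, stood at 243, 241, 70.8 and 76.4 CPM (-1.78 and -1.66). Tubb6, a beta tubulin, stood at 90.3, 88.3, 22.9 and 20.1 CPM (-1.98 and -2.14). The list was not lower throughout, since Cfl1 had -0.05 and 0.01, Pfn1 -0.07 and 0.10 and Myl6 -0.03 and 0.08.

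The 250 bases before the RefSeq start of Actg1 (GRCm38.p6, chr11:120348496-120348745, minus strand) are shown because Actg1 had the highest level of the list. The capitals mark a CArG box, the element bound by serum response factor, 90 bases before the start.
Actg1: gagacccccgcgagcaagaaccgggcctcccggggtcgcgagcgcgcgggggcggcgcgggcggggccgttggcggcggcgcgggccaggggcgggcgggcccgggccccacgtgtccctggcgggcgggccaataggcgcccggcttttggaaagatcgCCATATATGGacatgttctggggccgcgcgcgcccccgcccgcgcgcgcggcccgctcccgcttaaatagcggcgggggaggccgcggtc

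Searched on both strands, a CArG box occurred in 1.47% of all windows and in 1.26% of those of genes of 50 CPM or more. Of the 103 genes lower in HFD in both genotypes, 80 matched a window and 5 of them held it, Actg1, Dusp5, Fermt2, Huwe1 and Zfp644 (6.25%), as did 1 of 25 higher genes (4%).

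Of 11 measured alpha-enriched genes, 2 were past -0.5 in WT and 3 in HH, beside 9.35% and 7.9% of all genes tested, and none was past 0.5. The chromatin remodeller Smarca1 was lower in both (-0.78 and -0.76), as was Slc38a5, a glutamine carrier tied to alpha cell growth, at 73.0 CPM in WT and 88.1 in HH on SCD, and 49.8 and 50.4 on HFD (-0.55 and -0.81). Irx1 had log2 ratios of 0.50 in WT, just under the threshold, and 0.71 in HH, and Irx2 0.28 and 0.49. Of 7 measured pan-endocrine transcription factors, Foxa2 was higher (0.65 and 0.77) and Insm1 lower (-0.68 and -0.79) in both genotypes. Of 9 genes of glucagon processing and granules, only Scg2, a granin, passed 0.5, in HH (0.59). Over all genes 2.3% in WT and 2.95% in HH were past 0.5, and single calls in such short lists are not read as a difference from all genes. Pcsk2 had log2 ratios of -0.23 and -0.34. Of the genes most particular to alpha cells outside these lists, Pcp4l1 was lower in both genotypes (-1.45, -1.71 to -1.20 in WT and -2.14, -2.43 to -1.86 in HH), and Upk3a had -0.86 in WT and -0.23 in HH.

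Of 9 genes for amino acid transport and use, 2 were past -0.5 in WT and 2 in HH, and 1 was past 0.5 in HH. Of 7 ion channels, 2 were past -0.5 in WT and 1 in HH. Over all genes 9.35% and 7.9% were past -0.5 and 2.3% and 2.95% past 0.5, and with so few members these counts are not read as a difference from all genes. Glud1, glutamate dehydrogenase, stood at 138, 134, 92.6 and 86.8 CPM in WT SCD, HH SCD, WT HFD and HH HFD (-0.57 and -0.62), and Glul, glutamine synthetase, had 0.26 and 0.55. Slc7a2, the arginine carrier, did not pass 0.5 (0.17 and 0.05). None of 4 measured genes of glucose use passed it. Of 9 exocytosis genes, 1 was past -0.5 in WT and 2 in HH, and none was past 0.5. Snap25, a membrane fusion protein, had -0.52 and -0.74.

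Mitochondrially encoded genes lay below 0 in HFD in 11 of 11 measured, in both genotypes. Of these, 7 were past -0.5 in WT and 5 in HH, with medians of -0.56 and -0.44. Their medians were -0.46 and -0.40 in PP, -0.37 and -0.30 in delta and -0.19 and -0.45 in beta cells. In endothelial cells they were -0.28 and -0.31, so the lower values were not particular to alpha cells. mt-Nd3, a subunit of complex I, stood at 496, 464, 177 and 195 CPM (-1.48 and -1.25). The median mitochondrial share of an alpha cell's UMIs was 5.55%, 5.36%, 4.09% and 4.12%, and the filter on that share bounds it. Of 73 nuclear respiratory chain genes, 5 were past -0.5 in WT and 0 in HH, with medians of -0.14 and -0.05. Of 79 ribosomal protein genes, 11 were past -0.5 in WT and 1 in HH, with medians of -0.25 and -0.09. Over all genes 9.35% in WT and 7.9% in HH were past -0.5.

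The genes called in alpha cells were then read in the other classes of the same libraries. Of the 32 higher genes, 22 were also past 0.5 in both genotypes in PP cells, 17 in delta, 14 in endothelial and 7 in beta cells. Over all 2000 genes the corresponding shares were 2.45%, 1.7%, 6.15% and 1.1%. Of the 103 lower genes, 58 were past -0.5 in both genotypes in beta cells, 50 in delta, 40 in endothelial and 32 in PP cells, against 5.3%, 3.6%, 8.6% and 2% of all genes. The genes were chosen in alpha cells of the same libraries, so these counts are a description.

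The median of the immediate early genes differed in sign between alpha and beta cells. Their median log2 ratio of HFD over SCD was 0.93 in WT and 0.96 in HH in alpha cells and 1.38 and 1.20 in PP cells, whereas it was -0.47 and -1.06 in beta cells and -0.55 and -0.62 in endothelial cells. Delta cells stood between, at 0.80 in WT and 0.09 in HH, and in HH 5 of the 17 genes were past 0.5 and 5 past -0.5 there. Fos had log2 ratios of 2.52 and 2.22 in alpha cells, 3.47 and 3.03 in PP cells, 2.66 and 1.09 in delta cells, 0.98 and 0.94 in endothelial cells and -0.17 and -1.06 in beta cells. Dusp1 had ratios of 2.88 and 2.84 in PP cells and of 0.91 and 0.00 in beta cells. Mt1 was lower in every endocrine class, at -2.03 and -2.21 in beta cells, -2.54 and -0.88 in delta cells and -2.38 and -1.25 in PP cells. Actg1 had -1.28 and -1.24 in beta cells, close to the alpha values. The median of the actin and filament genes was -0.59 and -0.67 in beta, -0.50 and -0.84 in delta and -0.42 and -0.69 in PP cells. In endothelial cells it was -0.25 and -0.08. Msmo1 had -0.86 and -1.29 in beta cells and -0.82 and -1.21 in PP cells, smaller differences than in alpha cells. No class was tested against another, because each has 1 value per library.

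**Figure D5:**
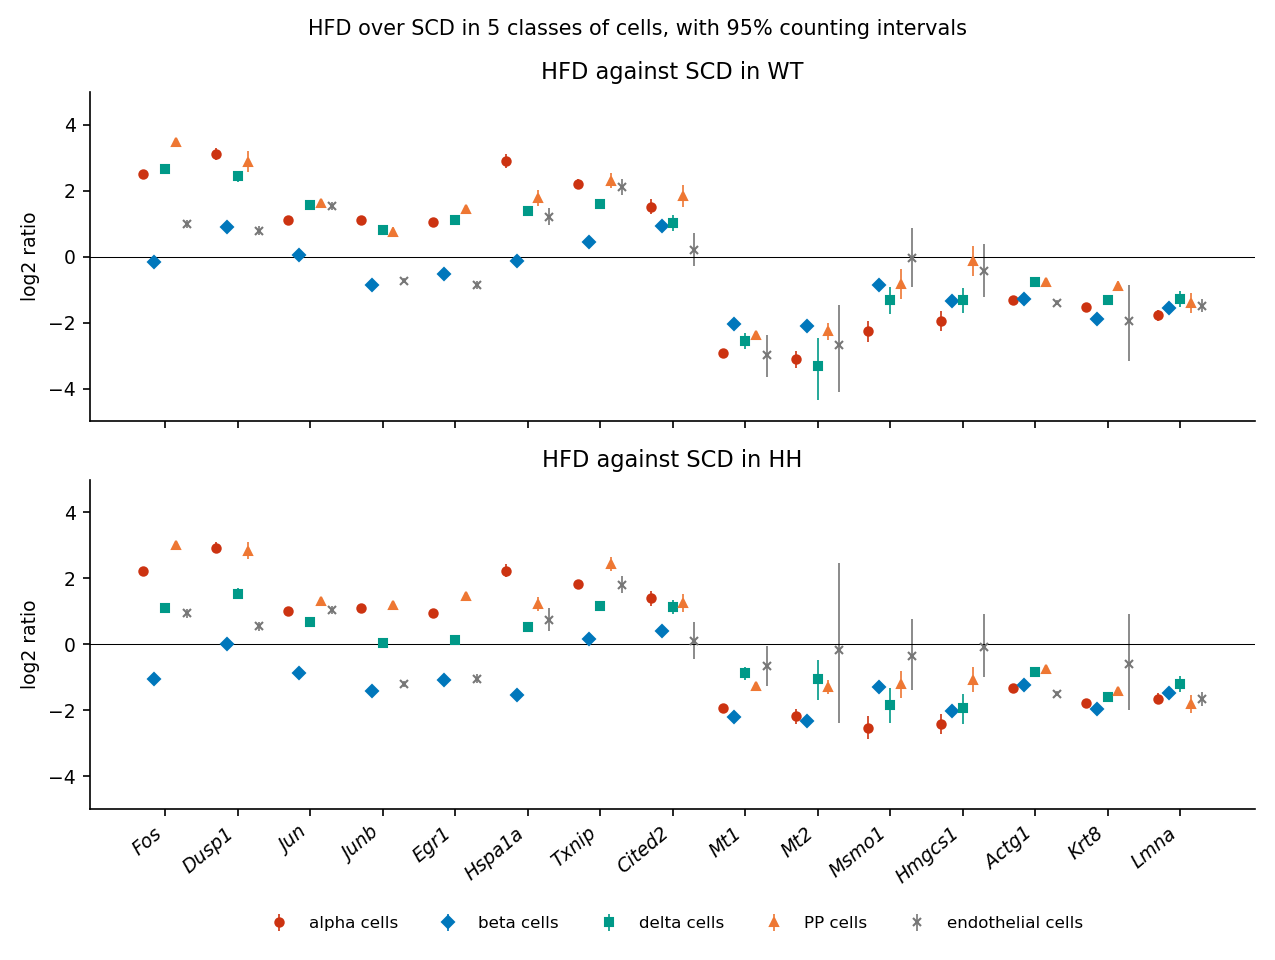
Log2 ratio of HFD over SCD with 95% counting intervals for 15 genes in alpha, beta, delta, PP and endothelial cells, for WT (top) and HH (bottom). Fos lay above 0.9 in every class but beta cells, where it was -0.17 and -1.06, and Mt1 lay below 0 in every endocrine class.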

How the data were processed

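The authors pooled islets of several male mice per library, made 3-prime libraries and aligned reads to GRCm38 (mm10) with Cell Ranger 6.0, per the labels. The deposited matrices hold raw UMI counts, neither normalised nor corrected for ambient RNA. The filter's 3 conditions were all required. Endothelial cells had at least 10 endothelial UMIs and hormones under 10%. Scrublet, run through scanpy 1.11.5, scored doublets, but its automatic threshold marked only 7 to 46 cells per library, so the top scores at 0.8% per 1000 cells were taken as doublets, kept in the main values and removed in an alternative. UMIs were summed per class and library, and log2 ratios of CPM were taken with 3 counts in place of 0, over the 2000 genes that averaged at least 50 CPM. Intervals were exact Poisson for sums, exact conditional for ratios and Clopper-Pearson for shares, and UMIs of 1 cell are not independent, so they cover counting error only. Intervals of differences of shares combine the limits of both. Python 3.11.15, numpy 2.4.6, scipy 1.17.1 and pandas 2.3.3 were used, and the steps were tested on simulated data.

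Members and lists were chosen with earlier results of these data known. Named genes were the 6 highest and 6 lowest per comparison by the interval bound nearest 0, the 15 genes highest and 10 lowest in alpha against the other endocrine classes, members of the alpha, processing, receptor, amino acid and hormone-cell lists, the extremes of other lists, and Pax4. Other named genes, and the lists on cholesterol synthesis and on actin and filaments, were chosen after their values were seen. Markers of endothelial, macrophage, lymphocyte, stromal, ductal, acinar and Schwann cells were summed in alpha cells. Gene positions came from a GRCm38 annotation that may differ from the one the authors used. Alternatives were other cell filters, Gcg at 5% or 10%, doublets removed, other hormones under 2%, other scalings, equal weight per cell, subtraction of the library profile (2.14% to 3.18% of alpha UMIs), other expression minimums and thinning depths. Leaving out the 1% of cells with most UMIs of a gene was added after seeing the data. Some genes of these lists are not reported here.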

Additional observations from a re-analysis of the deposited data

Results flagged for a closer look

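Each result here had effects of opposite sign under the same contrast, with both counting intervals clear of 0. In every case no test of the difference was made, and with a single library per group it was not tested. The alpha share of endocrine cells was 2.92 percentage points higher in HFD than in SCD in WT and lower in HH (-3.0). In WT this difference was 0.19 with no bounds on genes per cell and -1.98 with the looser filter, so its sign rested on the filter.

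The other values are log2 ratios of HH over WT in alpha cells. Nr4a2 had 0.69 in SCD and -0.35 in HFD, and Atf3 had 0.50 and -0.20. Mt1 had -0.58 in SCD and 0.40 in HFD, Basp1 -0.64 and 0.37, and Errfi1 -0.28 and 0.64. Sst had -2.95 in SCD and 1.42 in HFD, with most of its UMIs in 1% of the cells in 3 of 4 libraries.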

How the results depend on the processing

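No paired analysis was possible because each group has 1 library, and for the same reason no replicate could be left out. With the looser filter, the difference of the alpha share turned to 1.09 percentage points for HH against WT in HFD and to -1.98 for HFD against SCD in WT, and the Gcg median of HH SCD was 30.6%. With no bounds on genes per cell the same differences of the alpha share were -0.73 and 0.19. The cause was not tested. At a mean of 20 CPM or more, 50 genes passed 0.5 for HH against WT in SCD, 90 in HFD, 689 for HFD against SCD in WT and 663 in HH. At 100 CPM or more, the counts were 12, 8, 103 and 87, because more or fewer genes were tested. Of 52 counts under other settings, 44 were within 1.5 times the main count. The split of higher and lower calls moved by over 10 percentage points for HH against WT in HFD without hormone and mitochondrial genes in the totals (5 higher, 8 lower), for HFD against SCD under that scaling in WT (70 and 118) and with median-of-ratios size factors in WT (72 and 124) and HH (85 and 136), and for HH against WT in SCD with equal weight for each cell (7 and 8) and at 20 CPM or more (23 and 27). Of the ratios of named genes, 62 moved beyond their counting interval under an alternative and 556 did not, and of the list medians 101 moved and 1087 did not. Of the shares of cells with a UMI, 30 held and 66 moved, mostly under another thinning depth or none, which changes the UMIs per cell. Among those past 0.5 none changed sign. Depth limits genes under 50 CPM, and Pax4 could not be measured.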

Other observations

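In alpha cells, B2m, the light chain of MHC class I, stood at 42.7 and 34.1 CPM in WT and HH on SCD and at 57.3 and 68.9 CPM on HFD, with log2 ratios of HFD over SCD of 0.43 in WT and 1.01 in HH. The heavy chains H2-K1 and H2-D1 lay between 0.23 and 0.32 in both genotypes. No interferon-stimulated gene on the list reached 50 CPM.

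Hmgb2, a chromatin protein and the only measured cell cycle gene of 16, stood at 125, 159, 66.4 and 71.9 CPM in WT SCD, HH SCD, WT HFD and HH HFD. After thinning to 3000 UMIs, Mki67 or Top2a had a UMI in 0.4% to 0.7% of alpha cells. Herpud1, which aids the removal of misfolded proteins from the endoplasmic reticulum, stood at 248, 254, 146 and 183 CPM, the lowest ratio of HFD over SCD among 17 genes of the unfolded protein response in WT (-0.77) and HH (-0.48).

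Ins1 and Ins2 UMIs in alpha cells were lower in HFD. Ins1 stood at 3381, 3448, 1896 and 2344 CPM and Ins2 at 10348, 10610, 6494 and 7848 CPM in WT SCD, HH SCD, WT HFD and HH HFD. In endothelial cells Ins1 stood at 4906, 3381, 3193 and 2731 CPM in the same order.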
